A study of Mus musculus with 39 samples.

Results

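The livers of 39 male C57BL6/J mice were compared for the genes that make cholesterol and fatty acids. The list holds 36 genes, 19 in a sterol arm, 12 in a fatty acid arm and 5 that regulate both. It was drawn up by function, with earlier results of these data known. Each gene was represented by its RefSeq probe with the highest mean signal, which gave values for 35 of the 36 genes out of 17016 genes with a probe. Only Idi1 (isopentenyl diphosphate isomerase) had no probe matched to it, so the sterol arm was measured through 18 genes. AggE mice had spent hours each day in a small mesh cage inside the cage of a trained SJL aggressor with brief direct contact at random times, for 5 or 10 days. Ctrl mice went through the same schedule, including loss of food during the sessions and single housing, without an aggressor, and the labels name loss of liquid too for the stressed mice. Mice of both groups were therefore isolated and fasted for part of the day, and per the methods subject mice met an aggressor behind a partition shortly before tissue was taken. Livers were taken at 24 hrs post-5-day stressor (4 Ctrl, 5 AggE), 24 hrs post-10-day stressor (4 Ctrl, 5 AggE), 1.5 wks post-5-day stressor (4 Ctrl, 5 AggE) and 4 wks post-10-day stressor (6 Ctrl, 6 AggE). For AggE mice of the first of these groups the descriptions name 1 day of stress. At 1.5 wks the titles of all AggE mice begin with T10 and that of Ctrl mouse 4 with HC10, while the other Ctrl titles begin with C5. All these mice were grouped by their tissue labels, which name 5 days.

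Cholesterol is built from acetyl-CoA through mevalonate, isoprenoid diphosphates, squalene and lanosterol, and fatty acids are built from the same acetyl-CoA through malonyl-CoA. In liver, both arms are switched on by the sterol regulatory element-binding proteins, encoded by Srebf1 and Srebf2. SCAP carries these factors to the Golgi for cleavage when sterol is scarce, and INSIG proteins hold them back in the endoplasmic reticulum when it is plentiful. The fatty acid arm also responds strongly to feeding and insulin, and its reducing power comes partly from malic enzyme.

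Every value is a log2 ratio of liver RNA (Cy-5) to a common reference RNA (Cy-3) on the same array, so that a difference of 1 between groups is a 2-fold change. AggE and Ctrl were compared in 1 limma fit over all 25903 RefSeq probes, with Benjamini-Hochberg adjustment over all of them, and a change was called at an adjusted p of 0.05 or less. Calls at an unadjusted p of 0.05 or less are given as counts, to be read against the share of all probes. In a bulk sample such as these livers, fewer cells of a type and less RNA per cell cannot be told apart. The arrays lay on 11 slides. Ctrl and AggE mice shared no slide at either 24 hr point, so that slide and group cannot be told apart there, while 1 slide held mice of both groups at 1.5 wks and 1 at 4 wks. Signals were low, with 15.2% to 70.4% of probes well above background in Cy-5 per array and medians per group of 22.4% to 53.4%. Of the 35 members, 24 were well above background on all 39 arrays. For Mvk, Acacb and Gpam, no array of some groups did. No array of the AggE group at 24 hrs post-5-day stressor measured Mvk (0 of 5) or Acacb (0 of 5), and none of the Ctrl group measured Acacb (0 of 4), so no fold change of these is printed there. At 1.5 wks the same holds for Gpam (0 of 5 AggE and 0 of 4 Ctrl arrays), for Mvk in Ctrl (0 of 4) and for Acacb in AggE mice (0 of 5). Counts and medians of an arm hold all its genes with a probe, these included, as do the medians per mouse and the correlations, and the counts at 24 hrs and 1.5 wks are also given without them.

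Promoter sequences from RefSeq (GRCm38.p6) are shown for Hmgcs1, Hsd17b7 and Msmo1, the sterol genes that varied together most closely between mice (below), and for Me1, the member called at both 24 hr points. Each is the 150 bases before the start site. Capitals mark matches, on either strand, to the sterol regulatory element TCACNCCAC, the E-box CACGTG, the CCAAT box and the GC box GGGCGG.
Hmgcs1, chr13:119690201-119690350, plus strand: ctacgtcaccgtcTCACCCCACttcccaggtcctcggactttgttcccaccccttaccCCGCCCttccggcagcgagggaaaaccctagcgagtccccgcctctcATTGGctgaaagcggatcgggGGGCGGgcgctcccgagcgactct
Hsd17b7, chr1:169969206-169969355, minus strand: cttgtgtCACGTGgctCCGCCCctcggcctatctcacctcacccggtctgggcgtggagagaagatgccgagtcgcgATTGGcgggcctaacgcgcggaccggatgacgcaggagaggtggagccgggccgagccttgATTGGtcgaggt
Msmo1, chr8:64733579-64733728, minus strand: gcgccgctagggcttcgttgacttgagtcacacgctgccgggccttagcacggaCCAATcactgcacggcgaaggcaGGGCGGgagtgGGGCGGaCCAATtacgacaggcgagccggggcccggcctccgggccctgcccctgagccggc
Me1, chr9:86695915-86696064, minus strand: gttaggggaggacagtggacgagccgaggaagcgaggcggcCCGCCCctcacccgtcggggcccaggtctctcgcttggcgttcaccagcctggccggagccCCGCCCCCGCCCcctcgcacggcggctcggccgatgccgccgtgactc
The Hmgcs1 promoter holds a sterol regulatory element followed by CCAAT and GC boxes. Hsd17b7 has an E-box, and Hsd17b7 and Msmo1 have CCAAT and GC boxes, while the Me1 stretch shows GC boxes alone. None of these motifs contains another. Over the windows of 300 bases (250 before to 50 after the start), the sterol element was matched in 1 of 30 members with a window and in 1.221% of 27025 promoters. CCAAT was matched in 13 of 15 sterol genes, 6 of 10 fatty acid genes and 4 of 5 regulators, and in 37.92% of all promoters. GGGCGG was matched in 14 of 15 sterol genes but 3 of 10 fatty acid genes, against 35.91% of all promoters. CACGTG was matched in 2 of 15 sterol genes, 1 of 10 fatty acid genes and 2 of 5 regulators, and in 7.241% of all promoters. A match is a run of letters and no measured site, and 7 members have several start sites, of which only the window listed first was searched. No window was listed for Sqle, Fdft1, Fdps, Stard4, Scd1 and Fads1.

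The clearest change in these pathways was in Me1, cytosolic malic enzyme, which makes NADPH for fatty acid synthesis. Me1 transcripts fell at 24 hrs after both regimens, by 0.64 on the log2 scale post-5-day stressor (1.56-fold lower, SE 0.182, limma adjusted p = 0.0438) and by 0.98 post-10-day stressor (1.98-fold lower, SE 0.182, adjusted p = 0.00884). Post-5-day stressor, the log2 ratios of Me1 were 0.45, 0.63, 0.43 and 1.13 in the 4 Ctrl livers and -0.17, 0.14, 0.14, -0.36 and 0.33 in the 5 AggE livers. Post-10-day stressor they were 1.19, 1.00, 1.06 and 0.97 in Ctrl and -0.24, -0.07, -0.11, 0.48 and 0.29 in AggE livers. Every AggE liver lay below every Ctrl liver at both points, a separation seen in either direction for 7.57% and 1.71% of all probes. Me1 was the sole member whose groups did not overlap, at any of the 4 points. After rest the groups overlapped. At 1.5 wks, where 2 of 4 Ctrl and 4 of 5 AggE arrays measured the probe above background, the Me1 values were -0.43, 0.13, -0.61 and -0.38 in Ctrl and -0.33, -0.16, 0.02, -0.17 and -0.68 in AggE livers (difference 0.06, 95% interval -0.31 to 0.43). At 4 wks they ran from 0.15 to 0.71 (median 0.34) in Ctrl and from -0.13 to 0.75 (median 0.38) in AggE livers (difference 0.01, 95% interval -0.31 to 0.33). Subtracting the change after rest from that at 24 hrs gave -0.70 for the 5-day (95% interval -1.22 to -0.18, limma adjusted p = 0.477) and -0.99 for the 10-day regimen (95% interval -1.48 to -0.50, limma adjusted p = 0.180), so neither difference passed after adjustment. The changes after 5 and 10 days differed by 0.34 (95% interval -0.18 to 0.86, limma adjusted p = 0.921).

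The call of Me1 post-10-day stressor was lost without Ctrl mouse 1 (limma adjusted p = 0.0623) or AggE mouse 1 (0.0587) and with slide as a random block (1). The call post-5-day stressor was lost without any of Ctrl mice 1, 2 and 4 or AggE mice 1 and 4 (limma adjusted p up to 0.208), and 4 of 5 AggE arrays and 4 of 4 Ctrl arrays measured the probe above background there. Its change stayed negative at both 24 hr points under each of 15 alternatives, which left limma adjusted p at 0.0407 to 0.616 post-5-day stressor (call kept in 3) and at 0.000861 to 1 post-10-day stressor (call kept in 8).

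**Figure D1:**
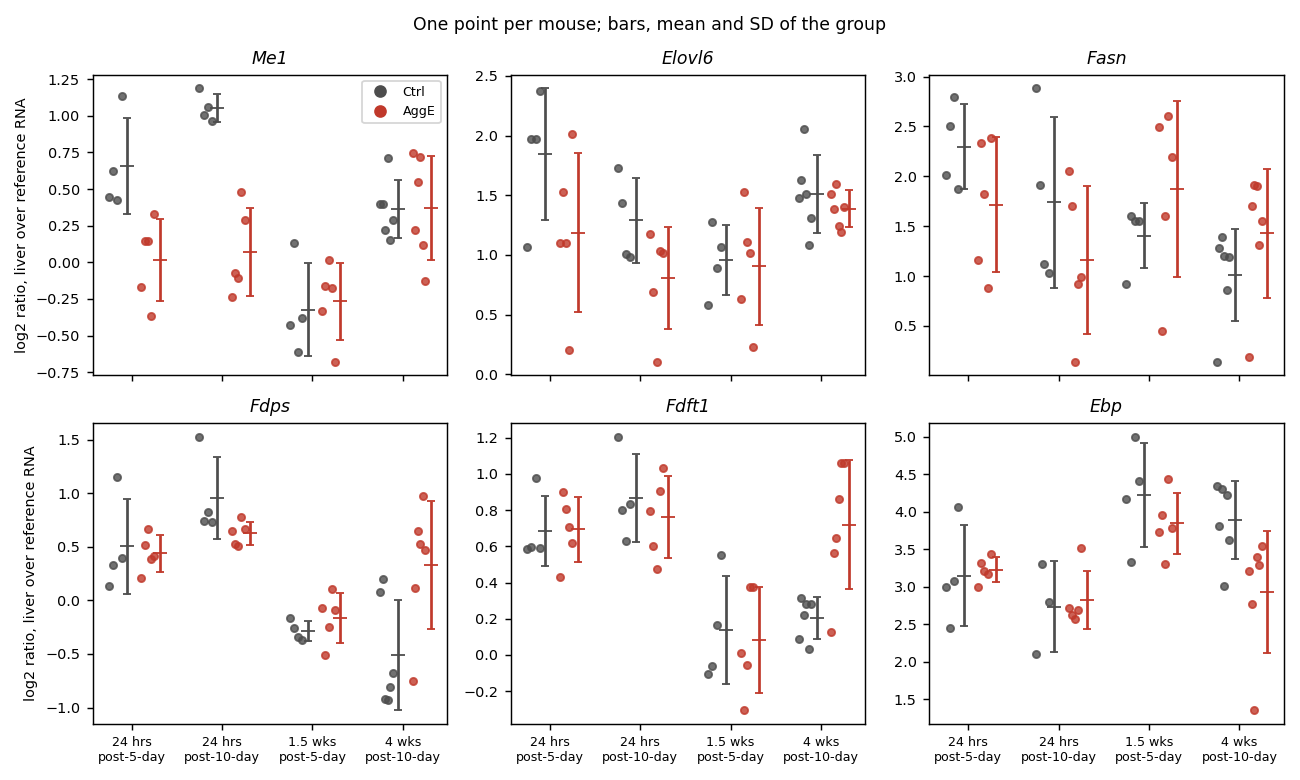
Log2 ratio of liver to reference RNA (y axis) of 6 members at the 4 stressor and time points (x axis), with 1 point per mouse, Ctrl in grey and AggE in red, and bars for the group mean and SD. Me1 is lower in every AggE mouse than in every Ctrl mouse at both 24 hr points and overlaps after rest, while the other 5 genes overlap at all 4 points.

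At 24 hrs post-5-day stressor, genes of the fatty acid arm tended lower in AggE mice and those of the sterol arm did not. All 12 fatty acid genes had a negative log2 fold change, with a median of -0.26 (11 of 11 and -0.29 without the unmeasured Acacb), against a median of 0.00 over all probes. Of the 18 sterol genes, 10 were higher and 8 lower, with a median of 0.03 (10 and 7 and 0.05 without the unmeasured Mvk). After adjustment 1 of 35 members was called, Me1, against 3.1% of all probes. At an unadjusted p of 0.05 or less 0 of 35 were higher and 2 lower in AggE mice, against 8.14% and 9.19% of all probes, so the members were called no more often than other probes. The member besides Me1 was Elovl6, the elongase that turns palmitate into stearate, at -0.66 (1.58-fold lower, 95% interval -1.22 to -0.09, limma adjusted p = 0.2). Its log2 ratios were 1.06, 1.97, 1.97 and 2.37 in Ctrl and 1.1, 1.53, 1.1, 0.20 and 2.01 in AggE livers. AggE mouse 4 was the lowest, and the groups overlapped. Without that mouse the difference was -0.41 (limma adjusted p = 0.497). Fasn, fatty acid synthase, stood at -0.58, with values of 2.01, 2.51, 2.79 and 1.87 in Ctrl and 1.16, 2.33, 1.82, 0.88 and 2.39 in AggE livers (95% interval of the difference -1.44 to 0.28). AggE mice 1 and 4 were the lowest, and the groups overlapped. A second, dimmer probe of Fasn was at -1.04 (SE 0.381, limma adjusted p = 0.129). Acly, which cleaves citrate to acetyl-CoA, was at -0.49 and the desaturase Fads2 at -0.43, neither past the unadjusted limit. In the sterol arm, the highest value was 0.51, for Msmo1, the methylsterol monooxygenase that trims lanosterol's methyl groups (95% interval -0.16 to 1.17).

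Post-10-day stressor at 24 hrs, most genes of both arms tended lower in AggE mice. Of 18 sterol genes 16 had a negative log2 fold change (median -0.17) and of 12 fatty acid genes 9 did (median -0.24), while the median over all probes was 0.00. Single genes were seldom past a limit. Me1 was the member called after adjustment, against 0.0734% of all probes, and at the unadjusted limit 0 of 35 members were higher and 2 lower, against 1.54% and 1.29%. The other was Scap, the escort of the regulatory factors, at -0.33 (95% interval -0.60 to -0.06, limma adjusted p = 1). Its log2 ratios were 0.50, 0.46, 0.78 and 0.90 in Ctrl and 0.11, 0.06, 0.35, 0.71 and 0.41 in AggE livers, with AggE mouse 4 inside the Ctrl range. Hmgcs1, which makes HMG-CoA for the mevalonate pathway, had the lowest value of the sterol arm, -0.66, with a wide 95% interval of -1.56 to 0.24. Pmvk, phosphomevalonate kinase, was at -0.40 (95% interval -0.83 to 0.02), and Fasn was at -0.58 as after 5 days (-1.44 to 0.28). Its values of 2.88, 1.92, 1.12 and 1.03 in Ctrl and 2.05, 1.70, 0.14, 0.92 and 0.99 in AggE livers spread widely in both groups, and its dimmer probe was at -0.23. Acly (0.01), Fads1 (0.03) and Thrsp (0.16), the thyroid hormone responsive protein tied to lipogenesis, were the fatty acid genes that were not lower. Of the regulators, Insig1 (0.05), Insig2 (0.13) and Srebf1 (0.13) had small positive values.

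Set side by side in each mouse, the fatty acid arm lay below the sterol arm in all 5 AggE mice after 5 days and in 3 of 5 after 10. For each mouse the median over an arm was taken after subtracting, gene by gene, the Ctrl mean of the same regimen and time. Each Ctrl mouse is part of that mean, which draws Ctrl values toward 0 and narrows their range. Post-5-day stressor the fatty acid arm was at -0.52, -0.14, -0.10, -0.69 and -0.02 in the 5 AggE mice and between -0.07 and 0.04 in the 4 Ctrl mice. The sterol arm of the same AggE mice lay between -0.14 and 0.09, inside the Ctrl range of -0.24 to 0.21. The sterol arm minus the fatty acid arm was 0.11 to 0.70 in AggE and -0.17 to 0.16 in Ctrl mice, so that 2 of 5 AggE mice lay within the Ctrl range. Post-10-day stressor the fatty acid arm was at -0.19, -0.17, -0.35, -0.26 and -0.04 in AggE mice, overlapping a Ctrl range of -0.22 to 0.16, and the sterol arm at -0.05, -0.40, -0.39, -0.18 and 0.00, overlapping -0.24 to 0.16. There the sterol arm minus the fatty acid arm was -0.23 to 0.15 in AggE and -0.17 to 0.12 in Ctrl mice. These are descriptions of a chosen list and carry no test. In both regimens, AggE mouse 5 was nearest to Ctrl in the fatty acid arm, and its array lay on a different slide from those of the other 4 AggE mice. With all 35 members tested singly, the difference between the 5-day and the 10-day change passed the adjusted limit for 0 (limma; 0.027% of all probes) and the unadjusted limit for 0 (6.7% of all probes). The medians of the fatty acid arm were -0.67 to -0.19 post-5-day and -0.43 to -0.15 post-10-day stressor over the alternatives, and that of the sterol arm post-10-day stressor was -0.34 to -0.10. The sterol median post-5-day stressor changed sign over them, from -0.18 with no normalization between arrays to 0.11. Single mice moved these medians too. Post-5-day stressor the fatty acid median was -0.40 without AggE mouse 3 and -0.17 without AggE mouse 4, and the sterol median ran from -0.05 to 0.06. Post-10-day stressor the fatty acid median was -0.13 without Ctrl mouse 1, and the sterol median was -0.11 without AggE mouse 3, -0.26 without Ctrl mouse 3 and -0.27 without AggE mouse 5.

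**Figure D2:**
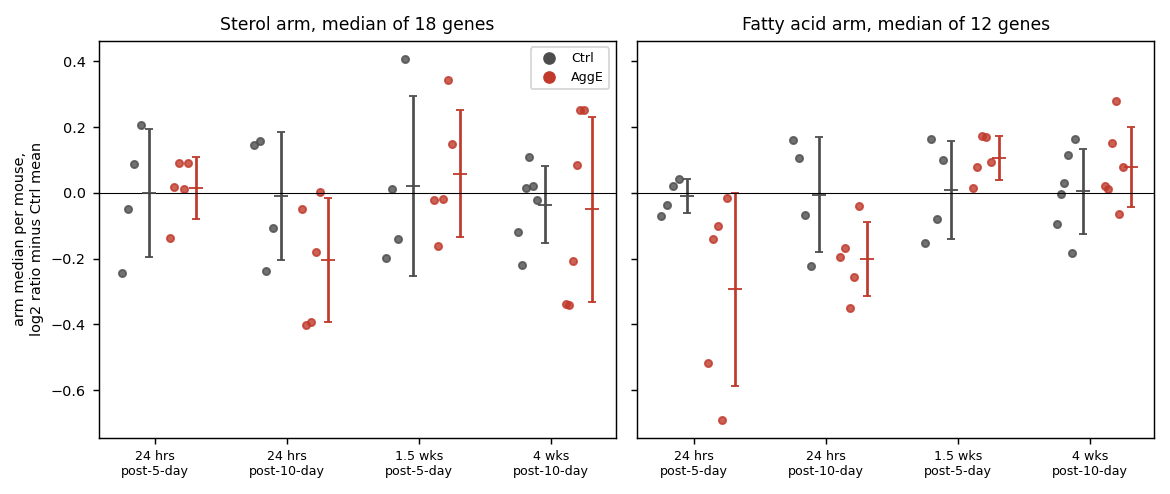
Median over the sterol arm (left) and over the fatty acid arm (right) of the log2 ratio minus the Ctrl mean (y axis) for each mouse at the 4 stressor and time points (x axis), Ctrl in grey and AggE in red, with bars for the group mean and SD. At 24 hrs post-5-day stressor the AggE mice sit at -0.69 to -0.02 in the fatty acid arm and at -0.14 to 0.09 in the sterol arm.

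Several measures of the livers and arrays moved beside these changes, and their part in them was not tested. Probes well above background made up 25.3% to 31.0% in Ctrl and 15.7% to 28.2% in AggE mice post-5-day stressor at 24 hrs, and 30.8% to 44.3% and 32.1% to 44.1% post-10-day stressor. Without the 4 arrays under 20% (AggE mice 3 and 4 post-5-day stressor at 24 hrs, and AggE mouse 1 and Ctrl mouse 1 at 1.5 wks), 0 members were called post-5-day stressor after adjustment and 1 before. The 8 hepatocyte markers with a probe were well above background on all arrays and 0 were called at any point. Of 10 adipocyte markers, 0 were above background on all arrays. At both 24 hr points 4 of the 10 had positive values (medians 0.00 and 0.00), Fabp4 among them, at 1.27 post-5-day and 0.93 post-10-day stressor and measured on every array of both points (limma adjusted p = 0.0510 and 1). Their summed Cy-5 signal was 261 to 405 in Ctrl and 282 to 427 in AggE mice post-5-day stressor, 339 to 1040 and 496 to 809 post-10-day stressor (both at 24 hrs), 235 to 290 and 198 to 602 at 1.5 wks, and 341 to 1299 and 521 to 1498 at 4 wks, where Lep was called higher (limma adjusted p = 0.0341). Of 7 Kupffer cell markers 7 were higher in AggE mice post-10-day stressor (median 0.36, 3 at the unadjusted limit, against 1.54% of all probes). At 24 hrs post-5-day stressor, Spp1 and Tff2 of 7 cholangiocyte markers and Npas2 of 12 clock genes were called higher, the last on a probe that no array of either group measured, while Spp1, a secreted phosphoprotein, was at 1.28 (limma adjusted p = 0.00408). Of the 7 cholangiocyte markers 5 were higher (median 0.07) and 1 was lower at the unadjusted limit. Of the 12 clock genes 5 were higher (median -0.06) and 2 were lower at that limit, against 9.19% of all probes. Of the markers of pancreas, leukocytes, stellate cells, endothelium and red cells, Cela2a at 24 hrs post-5-day stressor (measured by 0 of 9 arrays) and Cd4 at 4 wks were called higher.

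At 1.5 wks post-5-day stressor, no member was called. The count was 0 of 35 at the adjusted limit (limma; 0% of all probes) and at the unadjusted limit (0 higher and 0 lower, against 1.25% and 1.19% of all probes). Of 12 fatty acid genes 8 had a positive value, with a median of 0.12 (7 of 10 and 0.15 without the unmeasured Acacb and Gpam), as did 5 of 5 regulators. With the slide as a fixed block, positive values were left in 7 of 12 fatty acid genes (median 0.05; 6 of 10 and 0.05 without the unmeasured), 2 of 5 regulators and 7 of 18 sterol genes (median -0.07; 7 of 17 and -0.06 without the unmeasured). The highest values were Srebf1, at 0.61 (95% interval -0.07 to 1.30), Scd1, the desaturase that makes oleate, at 0.53 (-0.14 to 1.21), and Fasn, at 0.46 (-0.40 to 1.32). With the slide as a fixed block, Srebf1 turned to -0.33, and Scd1 and Fasn were both at 0.07. Fasn was at 0.92, 1.60, 1.55 and 1.55 in Ctrl and 2.49, 0.45, 1.60, 2.60 and 2.20 in AggE livers. AggE mouse 2, the lowest, was scanned on the second day with Ctrl mouse 4. The sterol arm had a median of 0.06, with 10 of 18 higher (10 of 17 and 0.08 without the unmeasured Mvk). On leaving out single mice the fatty acid median ran from -0.011 without Ctrl mouse 3 to 0.19 without Ctrl mouse 2, and the sterol median from -0.06 without Ctrl mouse 1 to 0.14 without Ctrl mouse 4. Less the change at 1.5 wks, the change at 24 hrs was negative for all 12 fatty acid genes (median -0.42; 10 of 10 and -0.54 without the unmeasured Acacb and Gpam), with 0 of 35 members past the adjusted limit (limma; 0.0695% of all probes) and 1 of 35, Me1, past the unadjusted limit (7.71% of all probes). Within the slide shared by 1 AggE and 3 Ctrl mice, the fatty acid arm differed by 0.14 and the sterol arm by 0.22. Within the first scan day (4 AggE and 3 Ctrl mice) they differed by 0.17 and 0.19, and within the second (1 and 1) by -0.08 and -0.38. With the scan day as a block, the count stayed at 0. Across the 35 members, Spearman's rho between the change and the brightness of the probe was 0.17 and -0.15 at 24 hrs post-5-day and post-10-day stressor, 0.55 at 1.5 wks and -0.30 at 4 wks, across genes, which are not independent replicates. Over all probes it was -0.17, -0.02, 0.05 and -0.08.

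At 4 wks post-10-day stressor, 2 genes of the sterol arm were called. Fdps, which joins isoprenoid units into farnesyl diphosphate, rose by 0.84 (1.79-fold, SE 0.213, limma adjusted p = 0.0270), and Fdft1, squalene synthase, rose by 0.52 (1.43-fold, SE 0.140, limma adjusted p = 0.0355). These were 2 of 35 members called, against 3.51% of all probes. At the unadjusted limit 5 members were higher and 5 lower, against 9.45% and 11.1% of all probes. The other members past the unadjusted limit with positive values, none past the adjusted one, were Mvd (0.49), which makes isopentenyl diphosphate, Nsdhl (0.33), a sterol dehydrogenase, and Gpam (0.24), the acyltransferase that starts glycerolipid synthesis. Those with negative values were Ebp (-0.96), the sterol isomerase, Stard4 (-0.52), a sterol carrier, Sc5d (-0.43), a sterol desaturase, and the regulators Srebf2 (-0.32) and Scap (-0.29), with limma adjusted p of 0.0653 to 0.220. The median was -0.07 over the sterol arm, with 8 of 18 higher, and 0.07 over the fatty acid arm, with 9 of 12 higher, beside 0.01 over all probes. With the slide as a fixed block, 9 of 18 sterol genes (median -0.05) and 6 of 12 fatty acid genes (median 0.00) had positive values. On leaving out single mice the sterol median ran from -0.16 to 0.06, above 0 without Ctrl mouse 4, AggE mouse 2 or AggE mouse 3, and the fatty acid median from 0.036 to 0.13. Over the 16 alternatives the fatty acid median ran from -0.044 to 0.23, and the sterol median from -0.18 to 0.09. Of 8 hepatocyte markers 0 were higher in AggE mice there (median -0.31) and 0 were called, and Epcam, a cholangiocyte marker, was called lower on a probe measured by 1 of 12 arrays, and the part of these in the changes was not tested.

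Fdps ran from -0.93 to 0.20 (median -0.74) in the 6 Ctrl and from -0.75 to 0.98 (median 0.50) in the 6 AggE livers. Fdft1 ran from 0.03 to 0.31 (median 0.25) in Ctrl and from 0.12 to 1.06 (median 0.76) in AggE livers. AggE mouse 1 alone lay inside the Ctrl range of Fdft1, and AggE mice 1 and 2 lay inside that of Fdps. AggE mouse 1 was also the one AggE mouse whose array shared a slide with Ctrl mice. On that slide, Fdps was at -0.75 in AggE mouse 1 and at -0.93, -0.81 and -0.68 in Ctrl mice 4, 5 and 6, a difference of 0.06, and Fdft1 was at 0.12 against 0.28, 0.03 and 0.28, a difference of -0.07. The Fdps mean of the 3 Ctrl mice of that slide minus that of Ctrl mice 1 to 3, on another slide, was -0.60. Ctrl mice 1 to 3 were at 0.08, 0.20 and -0.92, so Ctrl mouse 3 lay within the range of the shared slide's Ctrl mice. With the slide as a fixed block, fitted to the 21 arrays of the rested mice, Fdps was at 0.26 (limma adjusted p = 0.731) and Fdft1 at 0.41 (limma adjusted p = 0.519), and with slide as a random block at 0.62 and 0.48 (0.227 and 0.194). The calls were also lost without single mice, for Fdps in 6 of 12 cases (AggE 2, 3 and 5, Ctrl 3, 4 and 5; limma adjusted p up to 0.0855) and for Fdft1 in 9 of 12 (all but AggE 1, Ctrl 2 and Ctrl 6; up to 0.0790). Over 16 alternatives the call was kept in 9 for Fdps (limma adjusted p of 0.00170 to 0.731) and in 7 for Fdft1 (0.00203 to 0.519). The dimmer probe of Fdft1 was at -0.03.

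Ebp ran from 3.01 to 4.35 (median 4.02) in Ctrl and from 1.36 to 3.54 (median 3.25) in AggE livers, with AggE mouse 3 far below the rest. Stard4 ran from 1.64 to 2.97 (median 1.95) in Ctrl and from 1.42 to 1.87 (median 1.54) in AggE livers, a difference of -0.35 without Ctrl mouse 4. Its 2 dimmer probes were at 0.03 and 0.10. Ebp and Stard4 were each called lower in 4 of 16 alternatives (limma adjusted p down to 0.0324 and 0.0386), and on leaving out single mice Ebp was called in 0 of 12 cases and Stard4 in 2 of 12, without AggE mouse 6 or Ctrl mouse 2 (limma adjusted p down to 0.0225). Scap ran from 0.75 to 0.97 (median 0.82) in Ctrl and from 0.33 to 0.78 (median 0.55) in AggE livers, and Sc5d from 2.86 to 3.90 (median 3.53) and from 2.74 to 3.59 (median 2.99). Srebf2 ran from -0.83 to -0.21 (median -0.66) in Ctrl and from -1.45 to -0.60 (median -0.87) in AggE livers, on a probe measured in 5 of 6 arrays of each group. Srebf2 was called lower without AggE mouse 6 (-0.39, limma adjusted p = 0.0340). The other probe of Srebf2 was at 0.02. The groups overlapped for each of these members, while 1.55% of all probes had groups apart. Mvd ran from -0.23 to 0.97 (median 0.14) in Ctrl and from -0.16 to 1.18 (median 0.85) in AggE livers, Nsdhl from 0.07 to 0.71 (median 0.48) and from 0.60 to 0.99 (median 0.76), and Gpam from -0.10 to 0.33 (median -0.03) and from 0.15 to 0.42 (median 0.25). The other probes of Nsdhl were at 0.33 and 0.65, the second past the adjusted limit (limma adjusted p = 0.0364). With the slide as a fixed block, 5 members were past the unadjusted limit, namely Sqle (0.53), Mvk (-0.31), Tm7sf2 (-0.72), Srebf2 (-0.56) and Scap (-0.43), and 0 past the adjusted limit (limma). Srebf2 and Scap were the members lower at the unadjusted limit in both fits, but Srebf2 turned to 0.070 with no normalization between arrays or with Aquantile, and AggE mouse 1, the one AggE mouse on the shared slide, had the lowest array weight of all arrays (0.22). Within the shared slide the sterol arm differed by -0.38 and the fatty acid arm by -0.10.

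**Figure D3:**
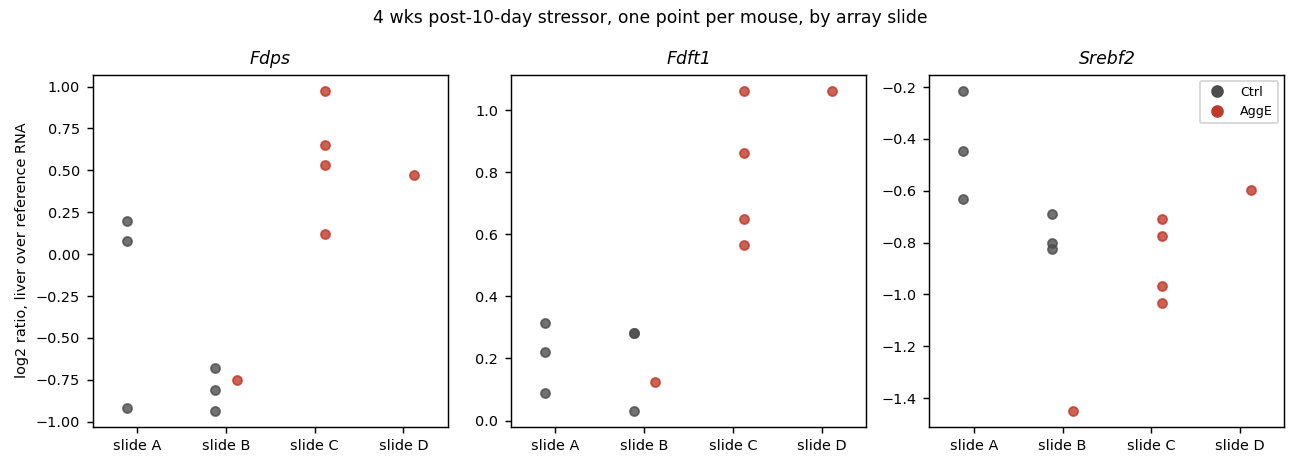
Log2 ratio of liver to reference RNA (y axis) of Fdps, Fdft1 and Srebf2 at 4 wks post-10-day stressor, with 1 point per mouse by the slide its array lay on (x axis), Ctrl in grey and AggE in red. Slide B is the slide that held both groups, and there Fdps and Fdft1 of the AggE mouse lie within or beside the Ctrl values while Srebf2 lies below them.

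In the 10-day regimen, the difference between the changes at 24 hrs and at 4 wks passed the unadjusted limit for 6 of 35 members (8.81% of all probes) and the adjusted limit for 0 (limma; 0.0502% of all probes). Taken as 24 hrs minus 4 wks, it was negative for Fdps (-1.17), Me1 (-0.99), Fdft1 (-0.62), Pmvk (-0.58) and Gpam (-0.37) and positive for Ebp (1.05). Ebp and Srebf2 were missing on the array of Ctrl mouse 3 at 24 hrs post-10-day stressor, where their spots were marked as outliers, and that mouse was left out of their values.

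**Figure D4:**
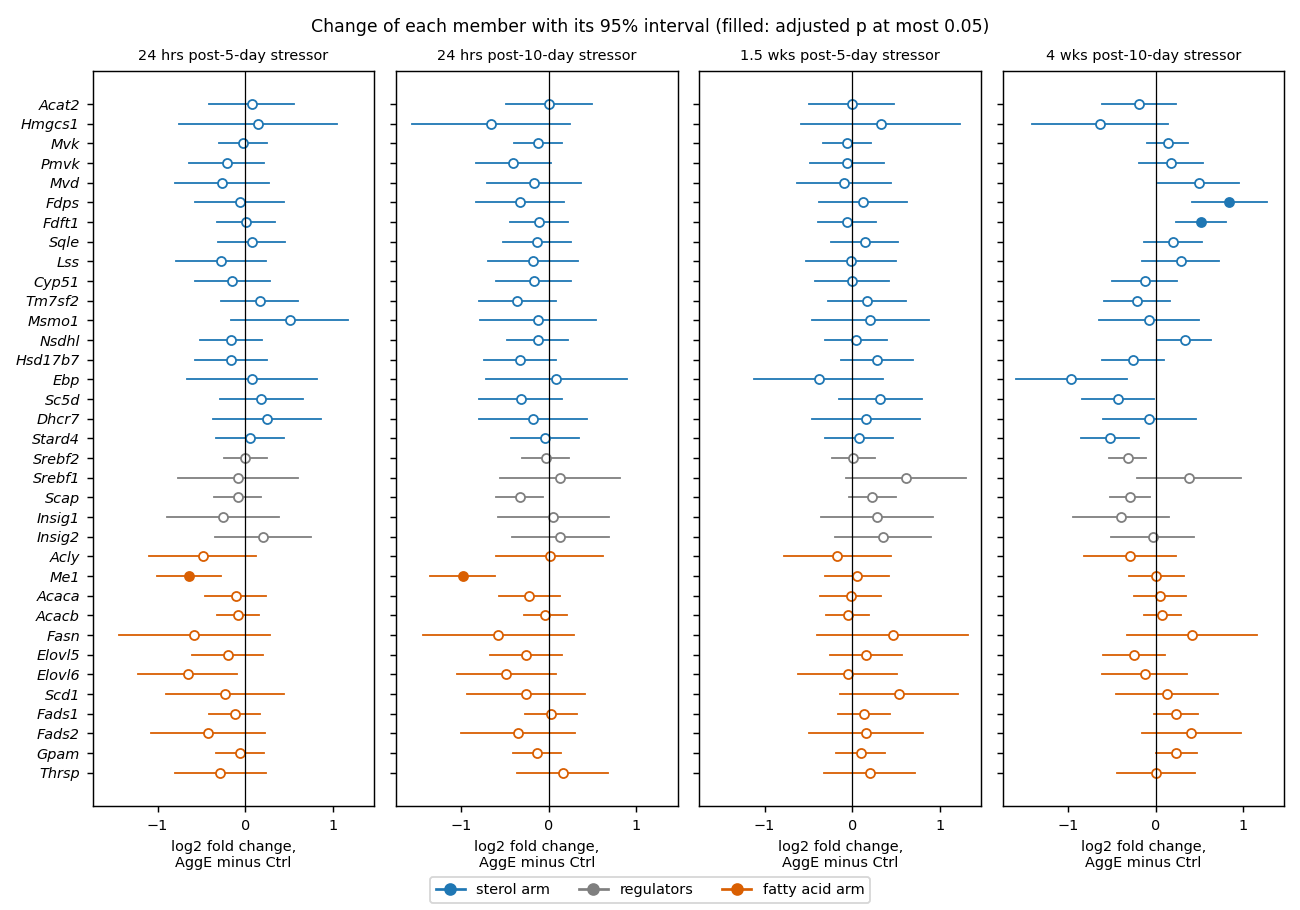
Log2 fold change of AggE minus Ctrl with its 95% interval (x axis) for the 35 measured members (y axis), in 1 panel per stressor and time point, with the sterol arm in pathway order, then the regulators and the fatty acid arm. Filled points passed the adjusted limit of 0.05, and these are Me1 at both 24 hr points and Fdps and Fdft1 at 4 wks, and the points of Mvk, Acacb and Gpam rest on background-level signals where no array measured them.

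Other genes of the 2 pathways were listed beside the members. Of 21 other sterol genes with a probe, 0 were called at 24 hrs after either regimen or at 1.5 wks (limma). At the unadjusted limit 2 were higher and 2 lower at 24 hrs post-5-day stressor (8.14% and 9.19% of all probes), among them Dhdds (-0.34), which makes dolichol, Rnf145 and Mbtps2, of which the last was measured by 0 of 5 AggE and 0 of 4 Ctrl arrays and Rnf145 by 0 of 5 AggE and 2 of 4 Ctrl arrays. None were past it post-10-day stressor or at 1.5 wks (0 and 0). At 4 wks 3 of 21 were called (3.51% of all probes), all lower in AggE mice. Among them, Nfe2l1, a factor that senses cholesterol in the endoplasmic reticulum, fell by 0.57 (limma adjusted p = 0.0150), and Soat1, which esterifies cholesterol, fell by 0.40 (limma adjusted p = 0.0333). At the unadjusted limit 4 were higher and 6 lower there (9.45% and 11.1% of all probes).

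Of 27 other fatty acid and lipogenesis genes, 0 were called at 24 hrs or at 1.5 wks (limma). At the unadjusted limit 5 of 27 were lower at 24 hrs post-5-day stressor (9.19% of all probes), among them Elovl3 (-1.80), an elongase, Pklr (-0.65), the liver pyruvate kinase, Tkfc (-0.58), a triokinase of fructose metabolism, and Dgat1 (-0.32), which completes triglycerides. The 2 that were higher, Elovl7 and Pnpla3, were measured by 0 of 5 AggE and 0 of 4 Ctrl arrays. Post-10-day stressor 0 were past the unadjusted limit. At 1.5 wks 2 were, both higher, Elovl2 (0.87) among them. At 4 wks Agpat2, an acyltransferase of phosphatidate synthesis, rose by 0.96 (SE 0.214, limma adjusted p = 0.0159), and Elovl2, the elongase of very long polyunsaturated chains, fell by 1.29 (SE 0.330, limma adjusted p = 0.0284), with 7 higher and 3 lower at the unadjusted limit (9.45% and 11.1% of all probes). With the slide as a fixed block, none of these 5 calls at 4 wks held (limma adjusted p of 0.0600 to 0.810). Nfe2l1 was then at -0.63, Elovl2 at -1.68, and Soat1 (-0.21) and Agpat2 (0.19) were nearer 0.

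Between mice of the same group, the median pair of sterol genes varied together more closely than the median pair of fatty acid genes. For each pair of members, Pearson's r was taken over the deviations from the group means on 39 arrays, less the array of Ctrl mouse 3 at 24 hrs post-10-day stressor for pairs with Ebp or Srebf2, which were missing on it. The median r was 0.26 over the 153 pairs within the sterol arm, 0.14 over the 66 pairs within the fatty acid arm and 0.10 over the 216 pairs between the arms, beside 0.00 over all pairs of probes and 0.03 over pairs of probes above background on all arrays. The deviations share slides and scan days, so r describes these arrays and carries no test. Hmgcs1, Msmo1 and Hsd17b7 formed the closest trio, with r of 0.85, 0.84 and 0.72. Fdft1 with Mvd (0.82) and Fdps with Mvk (0.79) followed. Lss varied with Mvk (0.75) and with Fads2 (0.70) of the other arm. Not all sterol pairs went the same way. Fdps ran against Cyp51 (-0.43) and Stard4 (-0.40), and Mvk ran against the same genes (-0.30 and -0.30). Mvk was above background on few of the arrays of the 5-day regimen (0 of 5 AggE and 1 of 4 Ctrl at 24 hrs, 1 of 5 and 0 of 4 at 1.5 wks), as were Acacb and Gpam, Srebf2 (1 array in each of these 4 groups) and Lss at 1.5 wks (1 of 5 and 1 of 4), so that their r rests partly on background-level signals. Of the regulators, Insig1, itself a target of the regulatory factors, had a median r of 0.36 with the sterol arm and 0.31 with the fatty acid arm. With the sterol arm, Insig2 was at 0.22, Scap at 0.14, Srebf2 at 0.08 and Srebf1 at -0.01. Ebp (0.07), Fdps (0.08), Lss (0.03), the lanosterol synthase, and Mvk (-0.01) were the sterol genes that followed their arm least. In the fatty acid arm the median r with the rest of the arm was 0.27 for Fasn and for Acaca, acetyl-CoA carboxylase, 0.24 for Scd1 and 0.11 for Me1.

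**Figure D5:**
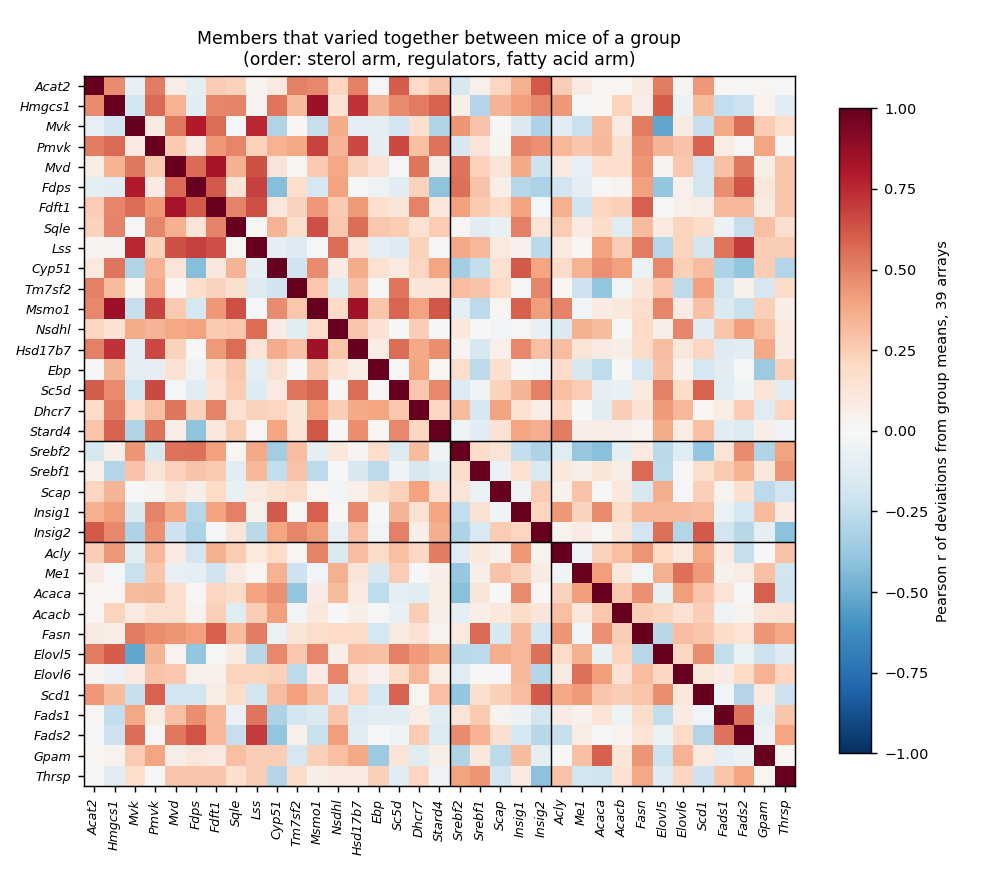
Pearson's r between members (both axes, sterol arm, regulators and fatty acid arm, parted by lines) of the deviations from group means over 39 arrays (1 fewer for Ebp and Srebf2), from -1 (blue) to 1 (red). The sterol block holds more red than the fatty acid block, with medians of 0.26 and 0.14.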

How the data were processed

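Liver RNA (Cy-5) of each mouse was hybridised with a common reference RNA (Cy-3) on 2-colour Agilent 4x44k mouse arrays, with no dye swap. The authors deposited scanner files with median foreground and background intensity per spot and colour, spot flags and a log10 ratio, read out by Feature Extraction (version 11.5.1.1 in the headers), and a value table that holds the same log10 ratios rounded. The deposited ratios are 0 where a spot gave none, so they served only as an alternative.

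Background was corrected by normexp (offset 50) in limma 3.58.1 under R 4.3.3, ratios were normalized by loess within and by quantiles between arrays, flagged outlier and control spots were left out, and spots of a probe were averaged. All 25903 RefSeq probes, named through RefSeq's gene table, entered 1 fit of 8 group means over 39 arrays with limma's moderated test and Benjamini-Hochberg adjustment. Array number limits the precision. The labels call the mice biological replicates. Members with values given per mouse or by range were those past an unadjusted p of 0.05 at some point. Fasn was given too, though its brightest probe was not past it at any point. The members and lists were chosen with earlier results of these data known. Other lists were hepatocyte, adipocyte, pancreas, cholangiocyte, Kupffer cell, leukocyte, stellate cell, endothelial, red cell and clock genes. Alternatives covered background, normalization, probe filter, array weights, slide, replicate number, probe choice and leaving out each mouse. The fit was tested on simulated data. Promoters came from RefSeq (GRCm38.p6). Some genes of the other lists are not reported here.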

Additional observations from a re-analysis of the deposited data

Results flagged for a closer look

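Of 44 groups of values tested, 2 had a mouse far from the others of its group, where chance gives about 1 in 20. Ctrl mouse 2 at 4 wks was high in Mvd (0.97), with a gap of 0.627 of the group's range. AggE mouse 3 at 4 wks was low in Ebp (1.36), with a gap of 0.645, and without that mouse the difference of Ebp was -0.65 (limma adjusted p = 0.252).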

How the results depend on the processing

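Me1 kept its direction at both 24 hr points, and Fdps and Fdft1 kept theirs at 4 wks, under every alternative and with any 1 mouse left out, but their calls did not all hold. The signal over background limits the rest, and 11 of 35 members were not measured on every array. The counts of members called after adjustment are given in the order 24 hrs post-5-day, 24 hrs post-10-day and 4 wks post-10-day stressor, where they were 1, 1 and 2. They were 0, 0 and 1 with no background correction, with an offset of 16 and with the scanner software's processed signals. They were 0, 0 and 0 with Cy-5 alone, with the deposited value table, with only the groups compared in the fit and with slide as a random block (correlation 0.320). They were 0, 1 and 4 with no normalization between arrays, with Aquantile (which leaves ratios as they are) and with only probes above background, 1, 1 and 4 with array weights, 0, 1 and 1 with the replicate number as a block, 1, 1 and 1 with the mean over a member's probes, and 0 at 4 wks with slide as a fixed block. At 4 wks, the 1 called with processed signals was Ebp, lower (limma adjusted p = 0.0415), while neither Fdps nor Fdft1 was called. The 4 with no normalization between arrays, with Aquantile and with only probes above background included Ebp and Stard4, both lower. With the replicate block Fdps lost its call. Leaving out 1 mouse gave counts of 0 to 1, 0 to 1 and 0 to 3.

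At the unadjusted limit, 2 members post-5-day stressor became 4 with processed signals or no normalization between arrays (and Aquantile), 5 with Cy-5 alone and 1 with slide as a random block or, chosen after seeing the data, without the 4 dim arrays, with 1 to 2 on leaving out a mouse. The 2 post-10-day stressor became 5 with no normalization between arrays (and Aquantile), 4 with Cy-5 alone or only the groups compared, 7 with array weights, 6 with the replicate block and 1 with slide as a random block (1 to 4 on leaving out a mouse). The 0 at 1.5 wks became 1 with processed signals or the replicate block and 2 with the value table or array weights (0 to 3). The 10 at 4 wks became 6 with Cy-5 alone and 5 with the value table or either slide block (6 to 13). For the difference between 24 hrs and 1.5 wks, 1 became 3 with processed signals or the replicate block, 4 with no normalization between arrays (and Aquantile), 2 with the value table, array weights or the mean over probes, and 0 with slide as a random block or without the dim arrays (1 to 3). For that between 24 hrs and 4 wks, 6 became 12, with 2 past the adjusted limit, under array weights and 2 with slide as a random block (3 to 11, and 0 to 1 adjusted). For that between the regimens, 0 became 1 with no background correction, processed signals or the replicate block and 2 with array weights (0 to 1).

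The fatty acid median post-5-day stressor was -0.53 with processed signals, -0.63 with no normalization between arrays (and Aquantile) and -0.67 with the value table, and post-10-day stressor -0.39, -0.41 and -0.43. At 4 wks it was 0.23 with the value table, and at 1.5 wks -0.011 to 0.19 on leaving out a mouse. The sterol median post-5-day stressor was -0.18 with no normalization between arrays (and Aquantile), where Srebf2 at 4 wks turned to 0.070. Deviations of same-numbered mice correlated at -0.448 to 0.502 over 18 pairs. No mismatched pairs were set beside them, so these values cannot say whether the replicate numbers pair the mice. The cause of these shifts was not tested.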
